A study of Mus musculus with 3 samples.

Results

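Cycling macrophages of the healing skin wound were taken as cell barcodes that passed a macrophage gate and carried at least 4 unique molecular identifiers (UMIs, the tags by which captured transcripts are counted) from 5 genes of dividing cells, Mki67, Top2a, Birc5, Ube2c and Cenpf. The gate asked for at least 1000 UMIs, at most 10% mitochondrial UMIs, at least 0.8% of UMIs from 9 macrophage genes (Lyz2, C1qa, C1qb, C1qc, Cd68, Adgre1, Fcgr1, Csf1r and Ms4a7), under 0.5% from the fibroblast genes Dcn and Col1a2, and under 1% from the neutrophil genes S100a8 and S100a9. Of 44693 barcodes in the series, 10422 passed the gate and 139 were cycling (2, 68 and 69 on Days 3, 7 and 14). The 9364 gate cells with 0 UMIs of the 5 genes (912, 6070 and 2382 by day) are called reference cells. The members were chosen by the counts of these genes, so neither they nor the 9 gate genes are results, and every value of cycling against reference cells describes the chosen cells.

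The study followed wound repair in male C57BL/6J mice, an inbred laboratory strain, aged 7 to 12 weeks, with droplet libraries of single cells prepared 3, 7 and 14 days post injury. The wounds were cut through the whole skin with a biopsy punch according to the methods, while the series text calls them incisional. The mice carried no transgene, deletion or drug in these libraries, the dissociated tissue was not sorted, and cells of several wounds were pooled into 1 library per day. A difference between days is therefore one between 2 libraries, with no replicate check and no test. Intervals are 95% intervals for counting error, and they do not cover the spread between cells or libraries. Levels are given in CPM, the UMIs of a gene per 1000000 UMIs of the summed cells.

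Macrophages of a wound come from blood monocytes that enter the tissue and from cells that already live in the skin, and both can divide in place. A dividing cell first licenses its replication origins and makes nucleotides, copies its DNA in S phase while new histones are made, and in G2 and M phase condenses its chromosomes and builds the spindle. E2F factors drive the genes of the first steps, and the MuvB complex with B-MYB and FOXM1 drives those of mitosis. In macrophages, colony-stimulating factor 1 and interleukin 4 are known signals for division.

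The cycling share of the macrophage gate was lowest in the Day 3 library and highest in the Day 14 library. On Day 3, 2 of 998 gate cells were cycling, or 0.200% (0.0243 to 0.722, Clopper-Pearson). On Day 7, 68 of 6738 were cycling, or 1.01% (0.785 to 1.28). On Day 14, 69 of 2686 were cycling, or 2.57% (2.004 to 3.24). The Day 14 share was 2.55 times that of Day 7 (log2 ratio 1.35, 0.87 to 1.83), and the intervals of those libraries did not overlap. The log2 ratio of Day 7 over Day 3 was 2.33 (0.31 to 4.36), but it rests on 2 cells. When cells were thinned to 2000 UMIs and counted from 2 cycle UMIs, the shares were 0.553%, 1.28% and 2.56% of 904, 5378 and 2347 cells, with 94, 1360 and 339 shallower cells left out.

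**Figure D1:**
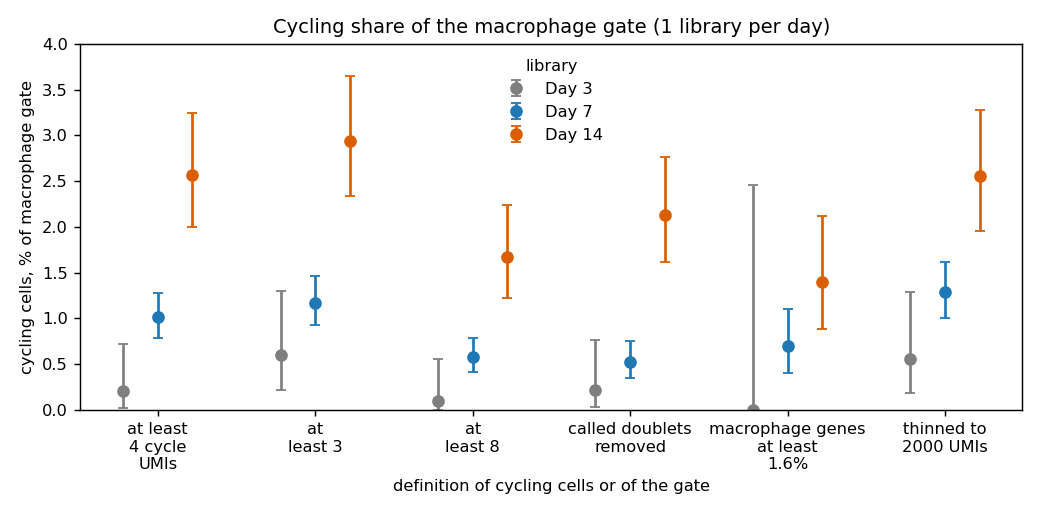
Cycling cells as a percentage of the macrophage gate (vertical axis) under 6 definitions (horizontal axis) in the 3 libraries; points are shares of 1 library and bars are 95% Clopper-Pearson intervals for counting error. Day 14 lay above Day 7 under each of the 6 definitions, with intervals that overlapped only where macrophage genes had to reach 1.6% of UMIs (0.692% and 1.40%).

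The minimum of 4 cycle UMIs lay in a sparse range. On Days 7 and 14, 11 and 10 gate cells had 3 cycle UMIs and 9 and 7 had 4, against 39 and 45 with 8 or more. The highest sums were 57, 70 and 67 by day. Of neutrophil barcodes with at least 5% of UMIs from S100a8 and S100a9, which as mature cells should not divide, 0 of 200, 0 of 41 and 0 of 6 reached 4 cycle UMIs. At 3 barcodes, the floor for a count of 0, that allows shares of up to 1.5%, 7.32% and 50%, at median depths of 1449, 1118 and 1239 UMIs that are below those of the gate. The gate itself weighs on Day 3: 1948 barcodes there failed only the macrophage minimum, and 24 of them (1.23%, 0.791 to 1.83) had 4 cycle UMIs. In the later libraries 148 of 4488 such barcodes (3.30%) and 106 of 3043 (3.48%) had them. Of these 24, 148 and 106 barcodes, 12, 93 and 71 held at least 4 UMIs of 1 of the 10 marker lists of other cells that leave out fibroblasts, and the other 12, 55 and 35 did not. All of them stay outside the gate by its rule; with all barcodes that failed only this minimum added, the shares were 0.883%, 1.92% and 3.05%. The neutrophil limit alone removed 3, 46 and 0 barcodes, none of them cycling, and the fibroblast limit alone 0, 128 and 130, with 0, 3 and 4 cycling.

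Stathmin (*Stmn1*), which binds tubulin and was used neither by the rule nor by the gate, was lowest in cells with 0 cycle UMIs and highest in those with 8 or more, with an uneven course between. Cell cycle genes move with the rule genes, so a rise over these classes is built into the sorting. It is no support for the minimum of 4. On Day 7 it was at 18.4 CPM in cells with 0 cycle UMIs, 137 with 2, 165 with 3, 688 with 4, 600.5 with 5 to 7 and 1144 with 8 or more. On Day 14 the same classes had 27.6, 252, 187, 559, 986 and 1738 CPM. *Hmgb2* on Day 7 was at 189 CPM with 3 and 62.5 CPM with 4 cycle UMIs, below the 89.8 CPM of reference cells. The classes of 3 and 4 are 7 to 11 cells each. *Nusap1*, a spindle protein gene, was at 15.6 and 24.3 CPM in cells with 4 cycle UMIs and at 354 and 263 CPM in those with 8 or more.

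**Figure D2:**
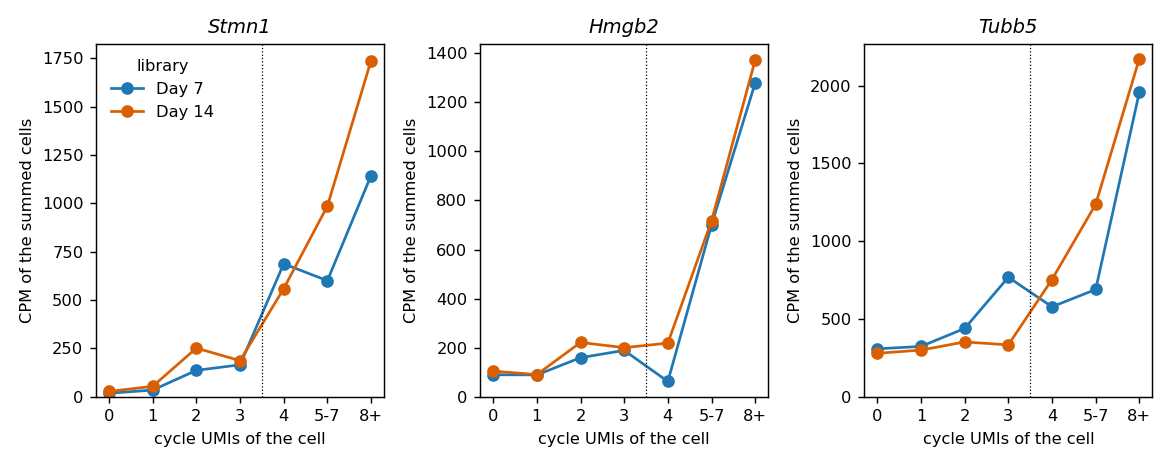
CPM of Stmn1, Hmgb2 and Tubb5 (vertical axes, linear from 0) in gate cells summed by their number of cycle UMIs (horizontal axes) on Days 7 and 14; the dotted line marks the minimum of 4. Stmn1 ran from 18.4 to 1144 CPM on Day 7 and from 27.6 to 1738 on Day 14 between cells with 0 and with 8 or more, and Tubb5 from 308 to 1957 and from 279 to 2172. The cells were sorted by genes that move with these, so the rises only describe the classes.

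Cycling cells were deeper than reference cells, as a rule that counts UMIs favours. Median UMIs were 5669.5 against 2935 on Day 7 and 7035 against 3695.5 on Day 14. At an equal 1000 UMIs per cell they still held more genes, with medians of 603 against 558 and 595 against 556. Mitochondrial shares were alike (3.01% and 2.94% on Day 7, 2.47% and 2.38% on Day 14). Ribosomal protein genes took 8.41% against 7.73% and 12.1% against 10.4% of UMIs, and the ribosomal RNA-derived transcript Gm42418 took 12.6% against 15.7% and 6.59% against 9.41%. Libraries shared 43, 111 and 19 barcodes in pairs, and 1 cycling cell had a barcode that another library also held.

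Doublet calls moved with the cycling cells. Of the cycling cells, 0 of 2, 40 of 68 (58.8%) and 14 of 69 (20.3%) were called doublets from simulated pairs, against 4.82%, 17.8% and 3.40% of reference cells. On Day 7 calls were more frequent in deep cells: among those of 6000 to 12000 UMIs, 75% of 28 cycling and 67.5% of 338 reference cells were called. Between 3000 and 6000 UMIs the figures were 53.6% of 28 and 28.0% of 2587. On Day 14, 17.4% of 23 cycling cells of 3000 to 6000 UMIs and 20% of 35 of 6000 to 12000 UMIs were called, against 2.29% and 15.6% of reference cells. Without called doublets the shares were 0.211%, 0.517% and 2.13%, and the log2 ratio of Day 14 over Day 7 was 2.04. The part of true doublets in the share was not tested.

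Of the marker lists of other cells, the fibroblast list had the highest sums in both groups of cells. The 8 fibroblast markers summed to 2709 CPM in cycling and 3442 CPM in reference cells on Day 7 and to 2559 and 4012 CPM on Day 14, with no marker at 0 in either group. The 7 dendritic markers summed to 16.7 against 28.4 CPM and 26.4 against 59.2 CPM, and *Zbtb46* and *Clec9a* were at 0 in cycling cells of both days. T/NK markers summed to 2.38 and 2.03 CPM with 6 of 7 at 0, and the Schwann list was at 0. The gate caps *S100a8*, *S100a9*, *Dcn* and *Col1a2* in both groups, so the neutrophil and fibroblast sums are bounded by it. Neutrophil markers summed to 229 against 248 CPM and 30.5 against 36.0 CPM, with *Retnlg* and *Ly6g* at 0 in cycling cells of both days. B cell markers summed to 64.3 against 84.3 CPM and 128 against 166 CPM, with *Cd79a* and *Ms4a1* at 0 in cycling cells. On Day 14, 3 of the 5 B cell markers were at 0 in reference cells too. Keratinocyte markers stood out on Day 14, at 1070 CPM against 253 CPM. Of their 526 UMIs, 494 lay in 4 cells, all 4 called doublets, and the other cycling cells held 69.9 CPM. On Day 7 the same list was at 7.15 and 10.0 CPM.

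Outside the rule, the cells carried genes of every step of the cell cycle. Over the 3724 genes of at least 50 CPM in 1 group and 10 UMIs in each library, 249 (6.69%) were at least 2-fold higher in cycling than in reference cells on both Days 7 and 14, and 30 (0.806%) were at least 2-fold lower on both. Taken singly, Day 7 had 8.94% higher and 2.55% lower, and Day 14 9.32% and 4.89%. A gene could reach 50 CPM in cycling cells alone, so the filter favoured genes that were higher there. With the 2 cells of Day 3 added, 4.29% of 4497 genes were higher and 0.667% lower in all 3 libraries. Those 2 cells hold 24500 UMIs together, so 2 UMIs of a gene were already 81.6 CPM, and 0 UMIs counted as lower. Day 3 therefore set a weak condition, and these shares do not show that 3 libraries agree. The median log2 ratio of the 3724 genes was 0.09 on Day 7 and 0.07 on Day 14. Of the 124 compared genes of the cell cycle and phase lists, 111 were higher on both days and none was lower. This count is a description that supports nothing: the rule chose on genes that move with them, and 99 of the 124 reached 50 CPM only in cycling cells, so the filter itself chose genes that were high there. Of the 25 that reached it in reference cells, 16 were higher on both days, and the other 9 included *Ccnd1*, *Cdk6*, *Cdkn1a*, *Cdkn1b*, *Pttg1* and *Rb1*. The 215 list genes together, with no minimum, summed to 25261 against 4685 CPM on Day 7 and 27917 against 5851 CPM on Day 14.

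**Figure D3:**
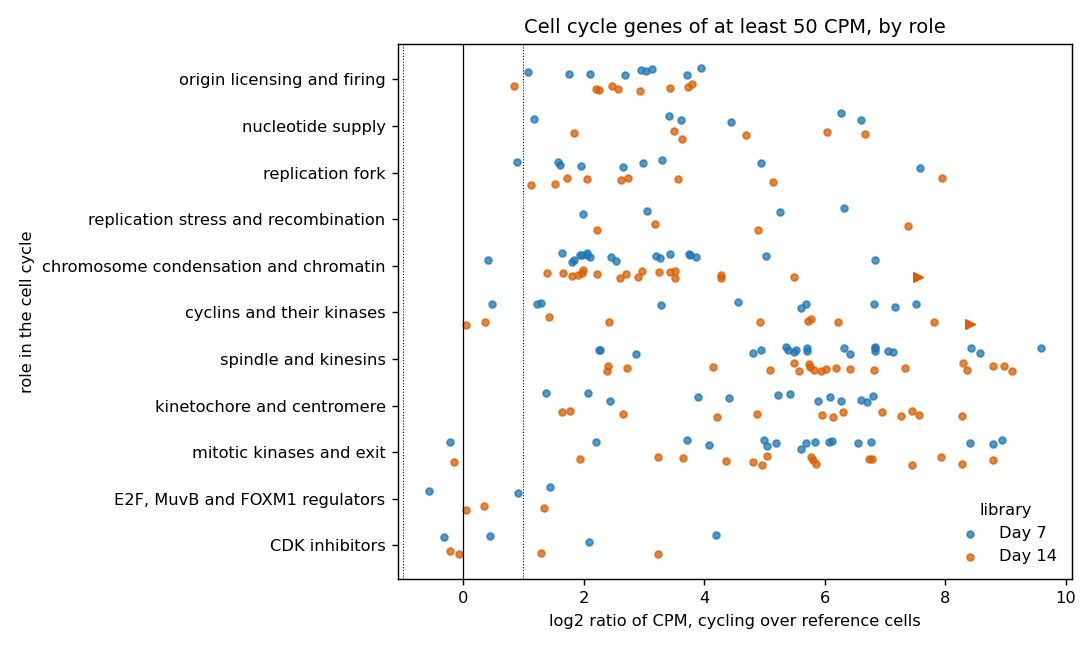
Log2 ratio of CPM in cycling over reference cells (horizontal axis) for each listed cell cycle gene of at least 50 CPM (points), by role (vertical axis) on Days 7 and 14; triangles are lower bounds for genes with 0 UMIs in reference cells, and dotted lines mark 2-fold. Of the compared genes, 19 of 21 spindle genes and 2 of 4 CDK inhibitors reached 50 CPM only in cycling cells, so the place of the points is set in part by that minimum. Pttg1 lay at -0.23 and -0.16.

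The 18 genes of origin licensing and firing, with no minimum, summed to 877 against 135 CPM on Day 7 and 848 against 138 CPM on Day 14. None of them reached 50 CPM in reference cells of either day. *Mcm5*, a subunit of the helicase loaded on origins, was at 71.5 CPM in cycling and 4.62 CPM in reference cells on Day 7 (log2 ratio 3.95, 3.31 to 4.56) and at 59.0 and 5.47 CPM on Day 14 (3.43, 2.72 to 4.11). *Mcm6*, another subunit, was at 95.3 against 12.4 CPM and 61.0 against 10.3 CPM. *Gmnn*, which encodes geminin and blocks a second round of licensing, was at 76.3 against 9.34 CPM and 102 against 7.36 CPM. *Cdt1*, the loader that geminin holds back, was the exception on Day 14, with 50.04 against 23.9 CPM on Day 7 and 42.7 against 23.9 CPM on Day 14, and without called doublets its Day 7 log2 ratio was -0.56.

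The 8 genes of nucleotide supply summed to 622 against 82.6 CPM on Day 7 and 659 against 55.5 CPM on Day 14. *Rrm2*, the subunit that limits ribonucleotide reductase, was at 69.1 against 0.710 CPM on Day 7 and 128 against 1.26 CPM on Day 14. Thymidine kinase *Tk1* was at 110 against 1.42 CPM and 104 against 1.58 CPM. The 25 genes of the replication fork summed to 1723 against 402 CPM and 1853 against 374 CPM. *Pclaf*, a partner of the sliding clamp, was at 322 against 1.67 CPM (log2 ratio 7.59, 7.03 to 8.18) and 336 against 1.37 CPM (7.94, 7.13 to 8.88). *Pcna*, the clamp itself, was well present in reference cells too, at 116 and 113 CPM, against 355 and 326 CPM in cycling cells. The 18 genes of replication stress and recombination summed to 789 against 85.6 CPM and 699.8 against 73.7 CPM, and the checkpoint mediator *Clspn* was at 102 against 2.69 CPM and 87.5 against 2.94 CPM.

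Histone and chromatin genes were among the genes outside the lists with the highest ratios. The filter had a part in this: of 13 compared genes with the Hist prefix, 11 reached 50 CPM only in cycling cells. Clustered histone genes are near-identical copies, so how reads were divided among them is uncertain. *Hist1h1b*, a linker histone, was at 341 against 2.99 CPM on Day 7 in 29 cells with a UMI, and at 751 against 2.21 CPM on Day 14 in 37 cells. *Hist1h3c*, a core histone, was at 145 against 0.660 CPM and 260 against 0.631 CPM. The 67 genes with the Hist prefix, a group chosen after values were seen, summed to 1971 against 238 CPM and 3035 against 186 CPM. *Ezh2*, which methylates histone H3, was at 143 against 13.04 CPM and 146 against 18.4 CPM. The 20 genes of the condensation and chromatin list summed to 7177 against 1462 CPM and 9283 against 1961 CPM. *Hmgb2* was at 970 against 89.8 CPM and 1127 against 105 CPM, a log2 ratio of 3.43 on both days, and *H2afz*, a variant histone, at 1587 against 406 CPM and 2911 against 833 CPM.

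Among the highest ratios outside the lists, *Esco2*, which establishes sister chromatid cohesion, was at 64.3 against 0.152 CPM and 46.8 against 0.210 CPM. *Cep55*, which acts in the last step of cytokinesis, was at 66.7 against 0.913 CPM and 81.4 against 0.105 CPM. *Diaph3*, an actin nucleator, *Asf1b*, a histone chaperone, and *Knstrn*, a kinetochore gene, ranked first over all 3 libraries, with their Day 3 UMIs (3, 3 and 1) in 1 cell each. They were at 112, 54.8 and 90.5 CPM on Day 7 against 2.89, 2.89 and 2.49 CPM. *Neil3*, *Shcbp1* and *Prr11* were at 52.4, 45.3 and 62.0 CPM on Day 7 against 0.355, 0.254 and 0.507 CPM. Every gene named in this paragraph was under 50 CPM in reference cells, so it passed the minimum only by being high in cycling cells. The 3-library ranking also held *Slfn9*, of the Schlafen family, at 100.1 against 7.87 CPM on Day 7 and 52.9 against 3.99 CPM on Day 14, and *Trim59* at 66.7 against 3.096 CPM and 32.6 against 3.05 CPM. *Ulbp1*, a ligand of a killer cell receptor, was at 40.5 against 5.58 CPM and 32.6 against 3.05 CPM, and the unnamed transcript *Gm42047* at 38.1 against 3.35 CPM and 14.2 against 1.79 CPM. Both were under 50 CPM on Days 7 and 14 and entered only through 2 and 3 UMIs in 1 Day 3 cell each (81.6 and 122 CPM). Of the 16 *Gm42047* UMIs on Day 7, 8 lay in 1 cell.

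The mitotic cyclins and their kinase were below 3 CPM in reference cells of Days 7 and 14. *Ccnb1*, cyclin B1, was at 124 against 0.863 CPM on Day 7 (log2 ratio 7.17, 6.35 to 8.05) and 63.1 against 1.16 CPM on Day 14 (5.77, 4.74 to 6.91). Its partner kinase *Cdk1* was at 143 against 2.94 CPM and 149 against 1.998 CPM. *Ccna2*, cyclin A2, was at 148 against 0.812 CPM on Day 7 and at 108 CPM against 0 UMIs on Day 14, a log2 ratio of at least 8.42 at 3 reference UMIs. Of the G1 genes, *Ccne2*, cyclin E2, was at 52.4 against 1.01 CPM and 38.7 against 0.736 CPM, and *Ccne1* at 26.2 against 0.863 CPM and 20.3 against 1.58 CPM. *Cdk4*, the partner of the D cyclins, was at 73.9 against 31.7 CPM and 112 against 41.6 CPM. *Ccnd1*, cyclin D1, was at 114 against 46.6 CPM on Day 7 but at 99.7 against 96.5 CPM on Day 14, where the interval of its log2 ratio held 0 (0.05, -0.40 to 0.46). Without called doublets its Day 7 log2 ratio went from 1.30 to 0.46, under 2-fold. *Cdk6* was at 102 against 73.4 CPM and 46.8 against 36.4 CPM.

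The 26 spindle genes together, with no minimum, summed to 6179 against 582 CPM on Day 7 and 6697 against 599 CPM on Day 14; 21 were compared, 19 of them through cycling cells alone. *Stmn1* was at 958 against 18.4 CPM on Day 7 and 1469 against 27.6 CPM on Day 14, with a UMI in 64 of 68 and 63 of 69 cycling cells. *Tubb5*, a tubulin that every cell uses, was at 1475 against 308 CPM and 1841 against 279 CPM. *Nusap1* was at 236 against 0.304 CPM (log2 ratio 9.60, 8.42 to 11.08) and 197 against 0.631 CPM (8.29, 7.12 to 9.77). The 19 kinetochore genes summed to 1592 against 163 CPM and 1398 against 155 CPM. *Cenpe*, a kinesin that moves chromosomes, was at 255 against 3.30 CPM and 149 against 2.10 CPM. The 20 mitotic kinases and exit genes summed to 2183 against 183 CPM and 1967 against 255 CPM. *Plk1*, polo-like kinase 1, was at 90.5 against 0.203 CPM on Day 7 and 46.8 against 0.105 CPM on Day 14, where 1 reference UMI gives an interval of 6.18 to 14.16 around the log2 ratio of 8.80. *Pttg1*, securin, was at 35.7 against 41.8 CPM and 59.0 against 65.9 CPM.

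Of the E2F, MuvB and FOXM1 list, 3 of 15 genes reached 50 CPM, 2 of them only in cycling cells. Of the 3, 1 was 2-fold higher on both days (6.69% of all genes), and the list medians were 0.91 and 0.35. *Lin54*, of the MuvB complex, was at 62.0 against 32.9 CPM on Day 7 and 48.8 against 47.3 CPM on Day 14. *Foxm1*, below that minimum, was at 42.9 against 0.812 CPM and 38.7 against 0.736 CPM, and *E2f8*, an E2F that represses, at 38.1 against 2.08 CPM and 36.6 against 1.89 CPM. *E2f1* was at 54.8 against 20.3 CPM and 42.7 against 16.8 CPM, while *Rb1*, which holds E2F back, was at 47.7 against 70.8 CPM and 63.1 against 49.6 CPM. Of 4 compared CDK inhibitors, *Cdkn2c* and *Cdkn2d*, which act on CDK4 and CDK6, reached 50 CPM only in cycling cells, and *Cdkn1a* and *Cdkn1b* in reference cells too. *Cdkn2c* was at 78.6 against 4.31 CPM (log2 ratio 4.19, 3.56 to 4.78) and 65.1 against 6.94 CPM (3.23, 2.57 to 3.86). *Cdkn2d* was at 76.3 against 17.9 CPM and 65.1 against 26.6 CPM. *Cdkn1a*, p21, was abundant in both groups, at 417 against 521 CPM and 952 against 1110 CPM, and after thinning to 1000 UMIs 33.8% of both groups on Day 7 and 59.4% against 56.8% on Day 14 held a UMI.

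The listed cycle genes, whether compared or not, were read for promoter letters of the known cell cycle elements. RefSeq windows of build GRCm38.p6 that cover the 250 bases before the start were found for 156 of 196 listed cycle genes. The searched letters, on both strands, were CCAAT (bound by NF-Y), TTTGAA or TTTAAA (forms of the cell cycle homology region, bound by MuvB) and TTTCGCG or TTTGGCG (E2F). CCAAT was in 60.3% of the cycle gene windows, 33.8% of all 32851 windows and 43.1% of 109 windows of the macrophage state lists, the homology region in 32.1%, 25.2% and 20.2%, and the E2F letters in 12.8%, 1.93% and 2.75%. The homology region together with CCAAT was in 25% of 56 spindle, kinetochore and mitotic kinase windows, 11.1% of 54 replication windows and 8.78% of all. E2F letters were in 18.5% of the replication windows and 7.14% of the mitotic ones. A match is letters in a window, not a bound site. The windows of 2 replication and 2 mitotic genes show both kinds, 5′ to 3′ in the direction of the gene, with every match in capitals; matches that touch or overlap, as in *Mcm5* and *Mcm6*, run together.
Mcm5, chr8:75109259-75109508, plus strand: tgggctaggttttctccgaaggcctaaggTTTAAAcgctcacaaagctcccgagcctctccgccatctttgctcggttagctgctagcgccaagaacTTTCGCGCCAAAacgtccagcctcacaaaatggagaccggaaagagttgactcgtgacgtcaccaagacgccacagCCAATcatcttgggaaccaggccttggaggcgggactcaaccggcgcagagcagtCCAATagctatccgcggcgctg
Mcm6, chr1:128359706-128359955, minus strand: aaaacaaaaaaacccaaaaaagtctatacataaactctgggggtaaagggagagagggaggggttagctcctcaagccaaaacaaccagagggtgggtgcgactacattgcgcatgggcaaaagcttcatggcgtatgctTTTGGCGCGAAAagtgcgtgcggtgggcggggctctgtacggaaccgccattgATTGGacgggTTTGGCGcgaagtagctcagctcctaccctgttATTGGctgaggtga
Plk1, chr7:122159185-122159434, plus strand: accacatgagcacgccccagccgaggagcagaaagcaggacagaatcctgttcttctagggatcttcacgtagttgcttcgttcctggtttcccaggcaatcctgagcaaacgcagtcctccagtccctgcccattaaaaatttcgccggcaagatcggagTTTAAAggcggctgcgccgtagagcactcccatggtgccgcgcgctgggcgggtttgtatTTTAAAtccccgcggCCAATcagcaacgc
Ccnb2, chr9:70421555-70421804, minus strand: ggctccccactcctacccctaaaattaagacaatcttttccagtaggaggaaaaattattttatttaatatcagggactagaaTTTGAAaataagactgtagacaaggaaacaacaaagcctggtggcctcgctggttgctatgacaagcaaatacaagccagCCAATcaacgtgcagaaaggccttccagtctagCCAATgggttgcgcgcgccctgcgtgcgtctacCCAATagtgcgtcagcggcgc

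*Mcm5* and *Mcm6* had 2 and 3 E2F matches in these windows, and *Plk1* and *Ccnb2* had none. *Mcm5* also had 1 homology region match and 2 CCAAT, and *Mcm6* had 2 CCAAT. *Plk1* had 2 homology region matches with 1 CCAAT, and *Ccnb2*, cyclin B2, had 1 with 3 CCAAT. In cycling cells *Ccnb2* was at 131 against 1.17 CPM on Day 7 and 142 against 0.631 CPM on Day 14.

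Most single cells held transcripts of both the S and the G2/M lists, with more of the latter. A G2/M list without the rule genes gave at least 4 UMIs in 68 of 68 cells on Day 7 and 67 of 69 on Day 14, and an S list in 50 and 55 of them. Reference cells hold both lists too and were not counted at 4 UMIs, so these counts do not set cycling cells apart. G2/M UMIs outnumbered S UMIs in 56 and 59 cells, and S UMIs outnumbered G2/M UMIs in 12 and 9. The rule favours G2/M, since its genes peak in G2 and M, and the lists differ at baseline: in reference cells the G2/M list summed to 860 and 963 CPM and the S list to 534 and 514 CPM. Histone UMIs were unevenly held: 38 cells on each day had at least 4, and 7 and 9 cells had 0. Of these 38, 35 and 36 also had 4 UMIs of mitotic kinases and exit genes, which 56 of 68 and 58 of 69 of all cycling cells had. Another 21 and 22 cells had 4 mitotic but not 4 histone UMIs, and 9 on each day had neither. After thinning to 1000 UMIs, 75% and 69.6% of cycling cells held an S list UMI against 40.4% and 39.0% of reference cells, and 67.6% and 66.7% held a histone UMI against 19.2% and 16.5%. A G2/M list UMI was held by 97.1% and 95.7% of cycling cells against 56.3% and 60.5% of reference cells.

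**Figure D4:**
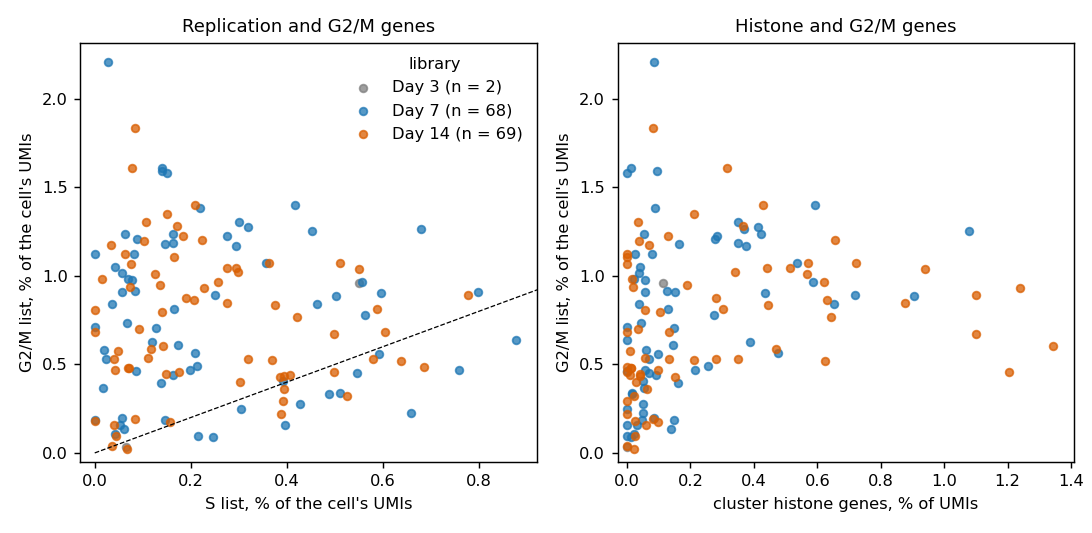
Each point is 1 cycling cell, with the G2/M list as a percentage of its UMIs (vertical axes) against the S list (left) or histone genes (right); the dashed line marks equal S and G2/M. Of the cells, 56 on Day 7 and 59 on Day 14 lay above the line, and histone genes reached 1.34% of UMIs.

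The 2 cells of Day 3 differed from each other. The deeper one, of 21424 UMIs, had 57 cycle UMIs with 16 of *Stmn1*, 11 of *Pclaf* and 11 of *Nusap1*. It also held 161 UMIs of *Cd74*, which serves antigen presentation, and 27 and 25 of the lectins *Mgl2* and *Clec10a*, with 0 of the dendritic genes *Flt3*, *Zbtb46* and *Cd209a*. The other, of 3076 UMIs, had 5 cycle UMIs and 0 of *Stmn1*, *Pclaf* and *Nusap1*. Against their sum, 13 of 456 genes (2.85%) were 2-fold higher on Day 7 and 137 (30%) lower, and these ratios are not read further.

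The macrophage state of the cycling cells differed from the reference cells in a few lists, and none of the compared genes of growth factor receptors, lineage factors, antigen presentation, efferocytosis or glycolysis was 2-fold higher or lower on both days. On Day 14 alone 3 of 8 growth factor receptor and signal genes, 2 of 6 efferocytosis genes and 2 of 13 lineage genes were 2-fold lower, beside 4.89% of all genes, and on Day 7 1 of 13 lineage genes was, beside 2.55%. In the lipid handling list 1 of 10 genes was 2-fold lower on both days, beside 0.806%: *Gpnmb*, a lysosomal glycoprotein gene, at 88.2 against 222 CPM and 20.3 against 59.7 CPM. *Mertk*, a receptor for dead cells, was at 62.0 against 113 CPM on Day 7 and 16.3 against 56.7 CPM on Day 14. *Maf*, a transcription factor gene, was at 1029 against 1360 CPM on Day 7 and 238 against 531 CPM on Day 14. After thinning, 57.4% against 63.6% of cells on Day 7 and 21.7% against 37.1% on Day 14 held a *Maf* UMI. Against reference cells weighted to the same depth its log2 ratios were 0.11 and -0.58. *Spi1*, which encodes the myeloid factor PU.1, was at 295 against 282 CPM and 232 against 302 CPM.

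**Figure D5:**
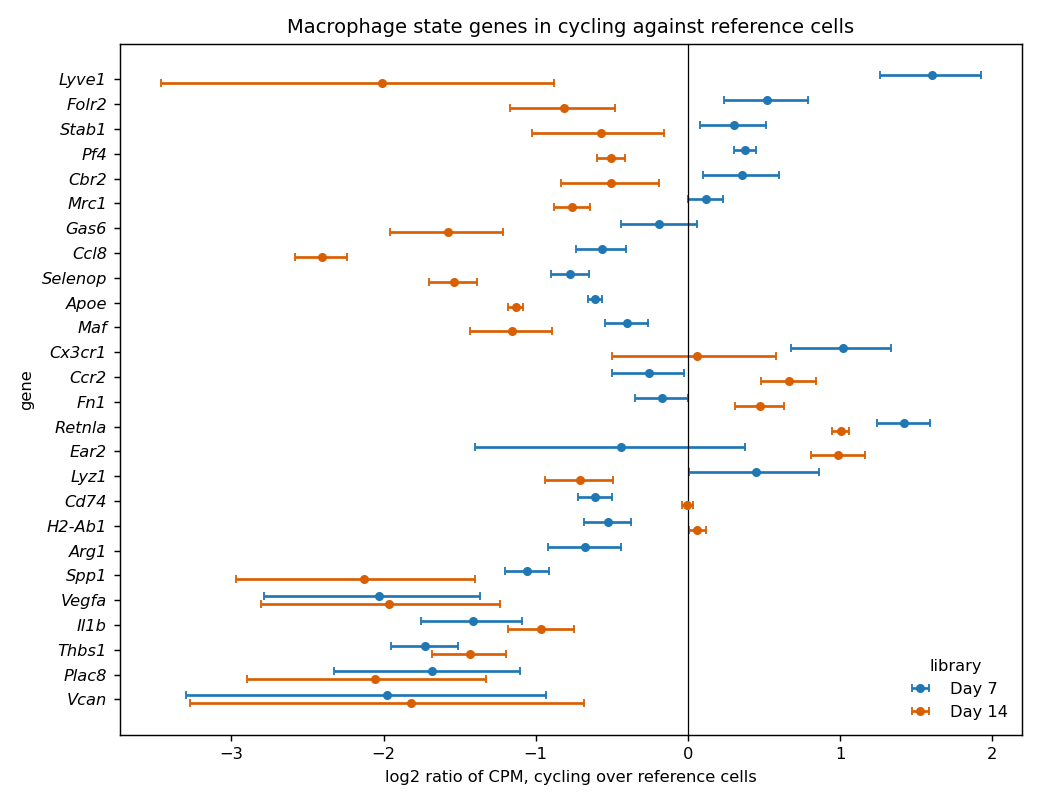
Log2 ratio of CPM in cycling over reference cells (horizontal axis) for macrophage state genes (vertical axis) on Days 7 and 14, with 95% intervals for counting error; Arg1 on Day 14 is left out, with 0 UMIs in cycling cells. Lyve1 lay at 1.61 on Day 7 and -2.01 on Day 14, while Apoe, Selenop, Ccl8, Spp1, Vegfa, Il1b, Thbs1, Plac8 and Vcan lay below 0 on both days.

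Genes of resident-like macrophages lay on both sides of the reference level on Day 7, with a list median of 0.21 and 1 of 12 compared genes 2-fold higher (8.94% of all genes), and on Day 14 had a median of -1.13 with 6 of 12 2-fold lower (4.89% of all genes). *Lyve1*, a hyaluronan receptor, was at 195 against 64.2 CPM on Day 7, in 15 cells with a UMI, and at 12.2 against 49.2 CPM on Day 14, in 2 cells. *Stab1*, a scavenger receptor, was at 424 against 344 CPM and 95.6 against 142 CPM. *Ccl8*, a chemokine, was lower on both days, at 739 against 1094 CPM and 588 against 3119 CPM. *Selenop*, a selenium carrier, was at 1253 against 2145 CPM and 692 against 2011 CPM. *Gas6*, a bridge for the uptake of dead cells, was at 324 against 369 CPM and 126 against 376 CPM. *Apoe*, a lipid carrier, was at 9014 against 13782 CPM and 6142 against 13469 CPM. Against reference cells of the same depth the Day 14 log2 ratio of *Gas6* went from -1.57 to -0.74, that of *Selenop* from -1.54 to -0.93 and that of *Apoe* from -1.13 to -0.57, and the Day 7 ratio of *Gas6* from -0.19 to 0.18. Without called doublets the Day 7 ratios of *Folr2*, *Pf4* and *Mrc1* went from 0.52, 0.38 and 0.12 to -0.65, -0.68 and -0.15.

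Read from the other side, cells with a *Ccl8* UMI after thinning were cycling in 0.941% of 1912 cells on Day 7 and 1.26% of 1114 on Day 14 (0.689 to 2.10), against 1.04% and 3.499% (2.65 to 4.53) of cells without one. Cells with a *Lyve1*, *Cd163* or *Folr2* UMI were cycling in 1.53% of 1437 (0.962 to 2.31) and 2.13% of 703, against 0.868% (0.636 to 1.16) and 2.72% of the rest. Cells with an *Apoe* UMI were cycling in 1.95% of 2302 on Day 14 (1.43 to 2.61), and those without one in 6.25% of 384 (4.05 to 9.16). On Day 7 the intervals overlapped, with 0.980% of 6529 (0.756 to 1.25) and 1.91% of 209 (0.524 to 4.83).

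*Retnla* and *Ear2*, genes of the late wound, were higher in cycling cells on Day 14, but the late macrophage list as a whole was not. Of its 8 compared genes, 1 was 2-fold higher and 2 were 2-fold lower on Day 14, with a median log2 ratio of -0.32. On Day 7, 2 were higher and 0 lower, with a median of 0.51. Of all genes 9.32% were higher and 4.89% lower on Day 14, and 8.94% and 2.55% on Day 7. *Retnla*, which alternatively activated macrophages secrete, was at 5412 against 2699 CPM on Day 14 and was present in 34.8% (23.7 to 47.2) against 16.1% of cells after thinning. *Ear2*, an eosinophil-type ribonuclease, was at 570 against 287 CPM. Against reference cells of the same depth the 2 genes had Day 14 log2 ratios of -0.080 and 0.11. On Day 7 *Retnla* UMIs lay in 4 cycling cells, 1 of which held 145 of 293. *Cx3cr1*, the fractalkine receptor, was at 193 against 95.4 CPM on Day 7 in 23 cells and at 65.1 against 62.3 CPM on Day 14. *Ccr2*, the receptor that brings in monocytes, was at 367 against 438 CPM on Day 7 and 559 against 353 CPM on Day 14. The class II gene *Cd74* was at 1639 against 2500 CPM on Day 7 and at 11212 against 11233 CPM on Day 14, where its interval held 0 (-0.04 to 0.04).

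Genes of early monocytes and of the *Arg1* wound state had 3 of 5 and 2 of 7 compared members 2-fold lower on both days, beside 0.806% of all genes. The lower early monocyte genes do not stand for their whole list, which summed to 1577 against 2954 CPM on Day 7 but 1644 against 1927 CPM on Day 14. After thinning, *Fn1*, fibronectin, had a UMI in 30.9% of cycling and 32.8% of reference cells on Day 7. On Day 14 it was in 27.5% (17.5 to 39.6) against 17.3%. *Thbs1*, thrombospondin 1, a matrix protein, was at 415 against 1370 CPM on Day 7 (log2 ratio -1.72, -1.95 to -1.51) and 295 against 796 CPM on Day 14 (-1.43, -1.68 to -1.19). Of cells with a *Thbs1* UMI after thinning, 0.412% (0.219 to 0.703) and 0.779% (0.286 to 1.69) were cycling, against 1.54% (1.16 to 1.99) and 3.29% (2.54 to 4.19) of those without. *Plac8* was at 57.2 against 183 CPM and 30.5 against 127 CPM (Day 14 log2 ratio -2.06, -3.63 without 1 cell with 10 of its 15 UMIs and -0.83, under 2-fold, against reference cells of the same depth), and *Vcan* at 16.7 against 65.8 CPM and 12.2 against 43.1 CPM. *Chil3*, which encodes the chitinase-like protein Ym1, had 0 UMIs in cycling cells of each library, against 148, 19.7 and 7.15 CPM in reference cells. At 3 UMIs its log2 ratio on Day 7 is at most -1.46, and 0 UMIs among 69 cells on Day 14 did not allow a 2-fold difference to be seen.

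*Vegfa*, an angiogenic factor, was at 42.9 against 175 CPM on Day 7 and 30.5 against 119 CPM on Day 14. Without called doublets the Day 7 log2 ratio of *Vegfa* went from -2.03 to -3.41 and that of *Thbs1* from -1.72 to -2.71, and no *Vcan* UMI was left in cycling cells of Day 7. *Spp1*, osteopontin, was at 932 against 1937 CPM and 30.5 against 134 CPM, and without called doublets its Day 7 log2 ratio went from -1.06 to -3.18. *Arg1*, arginase 1, was at 355 against 567 CPM on Day 7, with 98 of 149 UMIs in 1 cell. Its log2 ratio of -0.67 went to -2.19 without that cell, -2.22 without called doublets and -0.17 at 8 cycle UMIs. After thinning, 5.88% (1.63 to 14.4) of cycling and 19.5% of reference cells held an *Arg1* UMI on Day 7. Of cells with one, 0.309% (0.0843 to 0.790) were cycling, against 1.18% (0.906 to 1.499) of cells without. Of 9 compared inflammatory genes 1 was 2-fold lower on both days (0.806% of all genes), the chemokine *Ccl3*, at 100.1 against 270 CPM and 63.1 against 140 CPM. *Il1b* was at 186 against 495 CPM and 368 against 718 CPM.

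Outside the lists, *Slfn5*, of the interferon-inducible Schlafen family, had the lowest ratio of the genes with a UMI in cycling cells on both days, at 35.7 against 209 CPM on Day 7 (log2 ratio -2.55, -3.39 to -1.83) and 16.3 against 148 CPM on Day 14 (-3.19, -4.40 to -2.21). Reference cells carried it widely, with a UMI in 39.6% and 34.9%, against 19.1% and 10.1% of the deeper cycling cells. *Fabp4*, a fatty acid carrier, was at 14.3 against 69.1 CPM and 14.2 against 67.8 CPM. *Clec10a*, a lectin, was at 35.7 against 104 CPM and 63.1 against 244 CPM, and *Hbegf*, a growth factor for epithelium, at 11.9 against 36.7 CPM and 18.3 against 83.8 CPM. *Ifit2*, an interferon-stimulated gene, had 0 and 1 UMIs in cycling cells against 24.4 and 9.67 CPM in reference cells. Under 50 CPM on both days, it entered the 3-library ranking through Day 3 reference cells (118 CPM). Its 0 UMIs in the 2 cycling cells of Day 3 counted as lower, and the interval of its Day 14 log2 ratio held 0 (-7.57 to 0.26).

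The medians of the energy and growth lists lay less than 2-fold from reference cells. Those of the respiratory chain and nucleolar lists were above the median of all genes on both days, and that of glycolysis on Day 14. The respiratory chain and ATP synthase list had medians of 0.45 and 0.54, the nucleolar list 0.46 and 0.45, and glycolysis 0.08 and 0.46, beside 0.09 and 0.07 for all genes. Of 8 compared nucleolar genes 1 was 2-fold higher on both days (6.69% of all genes), *Nhp2*, at 66.7 against 32.1 CPM and 79.3 against 36.8 CPM. It was under 50 CPM in reference cells, so it passed the minimum only by being high in cycling cells.

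Within cycling cells 153 of 3424 compared genes (4.47%) were 2-fold higher on Day 14 and 223 (6.51%) were 2-fold lower. *H2-Eb1*, a class II chain, was at 879 CPM on Day 7 and 6372 CPM on Day 14 (log2 ratio 2.86, 2.70 to 3.02), beside a log2 ratio of 2.31 in reference cells. *Ear2* was at 28.6 and 570 CPM (4.32, 3.49 to 5.29), beside 2.89. *Spp1* was at 932 and 30.5 CPM (-4.93, -5.78 to -4.19), beside -3.86. *Hmox1*, which breaks down heme, was at 1473 and 203 CPM (-2.86, -3.18 to -2.55), beside -1.18, and without called doublets its ratio in cycling cells was -1.28. *Mmp12*, an elastase, was at 527 and 57.0 CPM, beside -0.17 in reference cells, but 185 of its 221 UMIs on Day 7 lay in 1 cell. *Ctsl* and *Msr1* were the remaining genes with the lowest ratios (-2.88 and -2.72, beside -1.80 and -1.38 in reference cells). *Retnla*, *H2-Ab1* and *Cd74* were the remaining genes with the highest (2.95, 2.69 and 2.77, beside 3.37, 2.11 and 2.17 in reference cells). The gap to reference cells moved with doublet calls. Without called doublets, log2 ratios of cycling over reference cells on Days 7 and 14 were -3.18 and -2.98 for *Spp1* (-1.06 and -2.13 with them). They were -0.103 and -0.013 for *Cd74* (-0.61 and -0.003), 0.15 and 0.08 for *H2-Ab1* (-0.53 and 0.06) and 0.50 and 1.08 for *Ear2* (-0.44 and 0.99). Only for *Retnla* among these 5 did the days lie further apart, at 2.27 and 0.99 (1.42 and 1.004).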

How the data were processed

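Droplet single-cell RNA libraries (3' v3.1 chemistry) of skin wounds, 1 per day, were analysed from the UMI counts per gene and barcode that the authors deposited, not normalised. The submitters' processing notes name Cell Ranger 6.0.0 and mm10; the annotation is not given in the sources used here. Ensembl IDs were matched to symbols for 32158 of 32285 genes. The libraries held 38133650, 120940799 and 112713257 UMIs on Days 3, 7 and 14. The members, gene lists and tests were chosen with earlier results of these data known.

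The gate and the minimum of 4 cycle UMIs were applied per barcode. UMIs of cycling and reference cells were summed per library and given as CPM. Ratios of levels have exact conditional binomial intervals, shares Clopper-Pearson intervals and ratios of shares log-normal intervals, at 95%, which cover counting error; no test was made with 1 library per day. A group at 0 was set to 3 counts for bounds. Genes compared on Days 7 and 14 had at least 50 CPM in 1 sum and 10 UMIs in cycling plus reference cells of each library. Day 3 was added for the count over 3 libraries. A gene was called at 2-fold. Cells were thinned to 1000 UMIs (2000 for shares) without replacement. Doublets were scored by 50 nearest neighbours among simulated doublets in 30 components of 2000 variable genes. The cut was the score at the number that 0.8% per 1000 barcodes gives (159, 3723 and 1677). All barcodes at or above it were called (170, 3867 and 1708). They were kept, and their removal was an alternative.

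Genes named were members of fixed lists, by rule those of at least 50 CPM (Foxm1, E2f8 and Ccne1, below it, were chosen after their values were seen), the 10 highest and 10 lowest ratios outside the cycle lists and the 5 highest and lowest between days, without mitochondrial, ribosomal protein, Xist and Y-linked genes. 1 list gene is not reported here. The intervals were tested on simulated counts. Python 3.11.15, NumPy 2.4.6, SciPy 1.17.1, pandas 2.3.3 and scikit-learn 1.9.0 were used.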

Additional observations from a re-analysis of the deposited data

Results flagged for a closer look

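The log2 ratios of cycling over reference cells of 12 macrophage state genes had intervals on opposite sides of 0 on Days 7 and 14. With 1 library per day the difference between days was not tested, and the intervals do not cover the spread between cells.

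*Lyve1* was at 1.61 on Day 7 (15 cells with a UMI) and -2.01 on Day 14 (2 cells), and *Ccl12*, a monocyte chemokine, at 0.56 (15 cells) and -1.10 (9 cells). Both kept their signs under all 6 planned settings and without the cell with most UMIs of the gene. Of the resident-like genes, *Folr2* was at 0.52 and -0.82, *Stab1* at 0.30 and -0.57, *Pf4* at 0.38 and -0.50, *Cbr2* at 0.35 and -0.50 and *Mrc1* at 0.12 and -0.76. Without called doublets the Day 7 ratio of *Pf4* was -0.68, and those of *Folr2* and *Mrc1* also changed sign, while against reference cells of the same depth the Day 14 ratios of *Pf4*, *Stab1* and *Cbr2* did.

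*Ccr2* was at -0.26 and 0.67, *H2-Ab1* at -0.53 and 0.0606, *H2-DMa* at -0.47 and 0.28, *Lgals3* at 0.30 and -0.15 and *Lyz1* at 0.45 and -0.71. Without called doublets the Day 7 ratios of *Ccr2* and *H2-Ab1* were 0.12 and 0.15. That of *H2-DMa* was 0.17, and against reference cells of the same depth its Day 14 ratio was -0.074. By the same weighting the Day 7 ratios of *Ccr2*, *Lgals3* and *Lyz1* were 0.22, -0.60 and -0.097, and the Day 14 ratio of *H2-Ab1* was -0.16, 1 of 3 settings that turned its sign. Without the cell with most *Lyz1* UMIs its Day 7 ratio was -0.45.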

How the results depend on the processing

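Planned settings were other minima of cycle UMIs, depth, mitochondrial and macrophage shares, thinning, removal of called doublets, other scalings and depth-weighted reference cells; those on Days 7 and 14 alone, without the top cell of a gene and by single gate limit were chosen after seeing the data. The cycling share kept its order of days under every setting tried. It was 0.579% and 1.68% (Days 7 and 14) at 8 cycle UMIs, 0%, 0.692% and 1.40% (Days 3, 7 and 14) where macrophage genes reached 1.6% of UMIs, and 1.28% on Day 7 after thinning. Day 7 was 0.517% without called doublets, and the log2 ratio of Day 14 over Day 7 was then 2.04. The ratio of Day 7 over Day 3 has no value at 1.6%, since Day 3 had 0 cycling cells. Over all 3 libraries, with 0 UMIs in the 2 Day 3 cells counted as lower, 193 genes (4.29% of 4497) were higher and 30 (0.667%) lower. The lower genes became 53 without called doublets, 51 at 8 cycle UMIs and 232 with no CPM minimum. On Days 7 and 14 they became 72, 51 and 641, and the 249 higher genes became 723 with no CPM minimum. Ratios past 2-fold turned sign for *Cd9* on Day 14 (-0.51) and *Cdt1* on Day 7 (-0.56) without called doublets and for *Retnla* on Day 14 (-0.080) against depth-weighted reference cells. The cause was not tested. Of the gene ratios on Days 7 and 14, 357 of 511 stayed within their interval against depth-weighted reference cells. No paired analysis was possible because each day is 1 library. Depth limits genes under 50 CPM, and 68 and 69 cells limit every ratio.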
